A study of Mus musculus with 9 samples.

Results

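The hair germ and the bulge, the epithelial cell populations at the base of the resting hair follicle, were compared on 6 of the 9 microarrays of the series: 3 arrays of hair germ and 3 of bulge, 1 of each on postnatal days 43, 56 and 69. The arrays were taken by their population labels, with no measured value used. All cells came from enzymatically treated back skin of female CD1 mice that carried Lef1RFP and K14H2BGFP, a red reporter named for Lef1 and a green histone fusion named for keratin 14. The mice had been weaned and kept as virgins until the day of collection. Bulge cells were sorted as RFP-, GFP+, CD34+ and low for P-cadherin, and hair germ cells as RFP-, GFP+, CD34- and high for P-cadherin. The labels place the days in early, middle and late telogen, the resting phase of the hair cycle. The other 3 arrays held dermal papilla cells, sorted as RFP+ and GFP- without CD45, CD117, integrin alpha 7 or, in the titles, CD34. In the main fit they entered the shared estimate of spread and left the differences unchanged. They also counted in the filter that set the genes tested and in the choice of probe set. In fits with arrays left out, they also entered the differences through the day term. How many mice went into an array, and whether hair germ and bulge of one age were sorted from shared animals, is not stated in the labels. The 3 days of a population served as its replicates, and day was a term of the fit. The p-values therefore measure the spread between arrays that remains once a day effect shared by all populations is removed.

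The bulge is the upper niche of the telogen follicle, where slow-cycling stem cells marked by CD34 surround the old club hair. The hair germ is a small cluster of P-cadherin-rich cells just below it, in contact with the dermal papilla. At the onset of a new growth phase the hair germ is known to respond first, under WNT signals and BMP inhibition, before the bulge is activated. The study's design text names the signature differences and similarities of these populations as a question. Cells per population and RNA per cell cannot be told apart on arrays.

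Levels are given throughout as log2(signal + 16), in the order of days 43, 56 and 69, and are compared only within a gene. A difference is hair germ minus bulge on that scale, with the standard error (SE) of the fit over 3 arrays each, and it understates the fold of low genes. Calls are limma's adjusted p below 0.05 over all 7796 genes tested. Of these, 1541 (19.8%) were called, 952 (12.2%) higher and 589 (7.56%) lower in hair germ, and 1536 of the calls had the same sign on all 3 days. At least 2-fold differences were called for 663 genes higher and 399 lower. The split between the directions rested on array scaling: it was 693 higher and 794 lower after quantile normalization, and 613 higher and 941 lower after centring each array on its median. Over all genes the median difference was 0.10, and it moved to -0.11 with that centring. All 3 hair germ values lay above all 3 bulge values for 1866 genes (23.9%) and below them for 1168 (15%). Among the 1541 called genes, 1488 had no overlap in either direction.

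RNA quality differed between arrays. The ratio of 3-prime to 5-prime signal of the Gapdh control probe sets was 8.34, 2.97 and 7.90 in hair germ and 4.46, 5.09 and 3.96 in bulge, so the hair germ arrays of days 43 and 69 lay above all bulge arrays and that of day 56 below them. With day 56 as the only hair germ array, 616 genes were called, 541 of them among the 1541. Leaving out 1 array lowered the count to 783, 973 and 863 without the bulge array of days 43, 56 and 69, and to 1174 to 1312 without a hair germ array. The part of RNA quality in the results was not tested.

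The sort was visible in Cd34, the gene of the gate. Its level was 4.07, 5.72 and 4.31 in hair germ and 11.60, 11.77 and 11.70 in bulge, a difference of -6.99 (SE 0.36, adjusted p = 3e-06, limma). This checks the labels and is no finding. The probe set of Cdh3, which encodes P-cadherin, lay below the median of its own array on all 6 arrays and checked nothing. Fgf18, a growth factor known to hold bulge cells at rest, was at 4.34, 4.19 and 4.36 in hair germ and 11.11, 11.31 and 10.19 in bulge (difference -6.57, SE 0.67, adjusted p = 1.1e-04). Tcim, a small protein linked to WNT signalling, was at 10.87, 10.12 and 10.95 in hair germ and 6.73, 5.49 and 6.42 in bulge (difference 4.43, SE 0.21, adjusted p = 3e-06). Tnfrsf19, a tumour necrosis factor receptor relative regulated by WNT, was at 9.27, 9.60 and 9.24 against 5.54, 4.74 and 4.86 (difference 4.33, SE 0.39, adjusted p = 5.6e-05). None of these 4 genes overlapped between the populations on any day. Of 16 genes linked to hair germ and matrix fate, 5 were higher in hair germ and 3 lower, with a median of 0.19 that turned to -0.02 after median centring. Tcim, Tnfrsf19, Axin2 (1.46), Gata3 (1.26) and Ccnd1 (1.07) were higher, and Lhx2 (-2.41), Bambi (-1.32) and Msx1 (-0.91) lower. The lower count was 1 without any single bulge array or the hair germ array of day 43, and 0 with day 56 as the only hair germ array. Lef1 (0.76), whose probe set was below the median on every hair germ and bulge array, and Ptch1 (-0.08), the Hedgehog receptor, were not called.

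Among the 12 largest differences in each direction, structural and surface proteins stood beside the markers. In bulge these included Sncg (difference -5.22), a synuclein; Kcnk2 (-4.90), a background potassium channel; Ppp1r3c (-4.71), which targets a phosphatase to glycogen; and Pdlim3 (-4.37), an actin-associated protein. The remaining genes of that side were S100a4, Sh3kbp1, Tspan2, Sema3e, Ramp1 and Igdcc4, between -4.12 and -3.84. Sncg was at 4.59, 5.04 and 4.10 in hair germ against 9.58, 10.31 and 9.52 in bulge. Kcnk2 was at 5.70, 6.06 and 4.71 against 10.48, 10.65 and 10.05. Each of these 10 genes separated the populations on every day, with no overlap. They were picked for large called differences, so this adds nothing to their values. Of all 1541 called genes 1488 had no overlap, and of all genes tested 15% lay lower without overlap.

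On the hair germ side stood Abi3bp (4.25), a matrix protein, Phldb2 (3.99), which anchors microtubules at the cell cortex, Chl1 (3.80), a neural adhesion molecule, Serpinb2 (3.80), a protease inhibitor, and Casp4 (3.77), an inflammatory caspase. Chl1 was at 9.21, 8.47 and 9.83 in hair germ and 5.65, 4.99 and 5.45 in bulge. Krt6b, a keratin of wounded and inner follicle epithelium, did not separate the populations on every array. It was at 11.41, 5.67 and 12.17 in hair germ and 4.96, 4.12 and 6.91 in bulge (difference 4.42, SE 0.97, adjusted p = 0.0096), and the call was lost with day 56 as the only hair germ array, without the bulge array of day 43 and without the hair germ array of day 43. Krt6a, a near-identical gene whose probe sets may share transcripts with it, was at 12.18, 8.09 and 10.37 against 12.04, 12.04 and 12.01 and was not called (difference -1.82, adjusted p = 0.055).

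**Figure D1:**
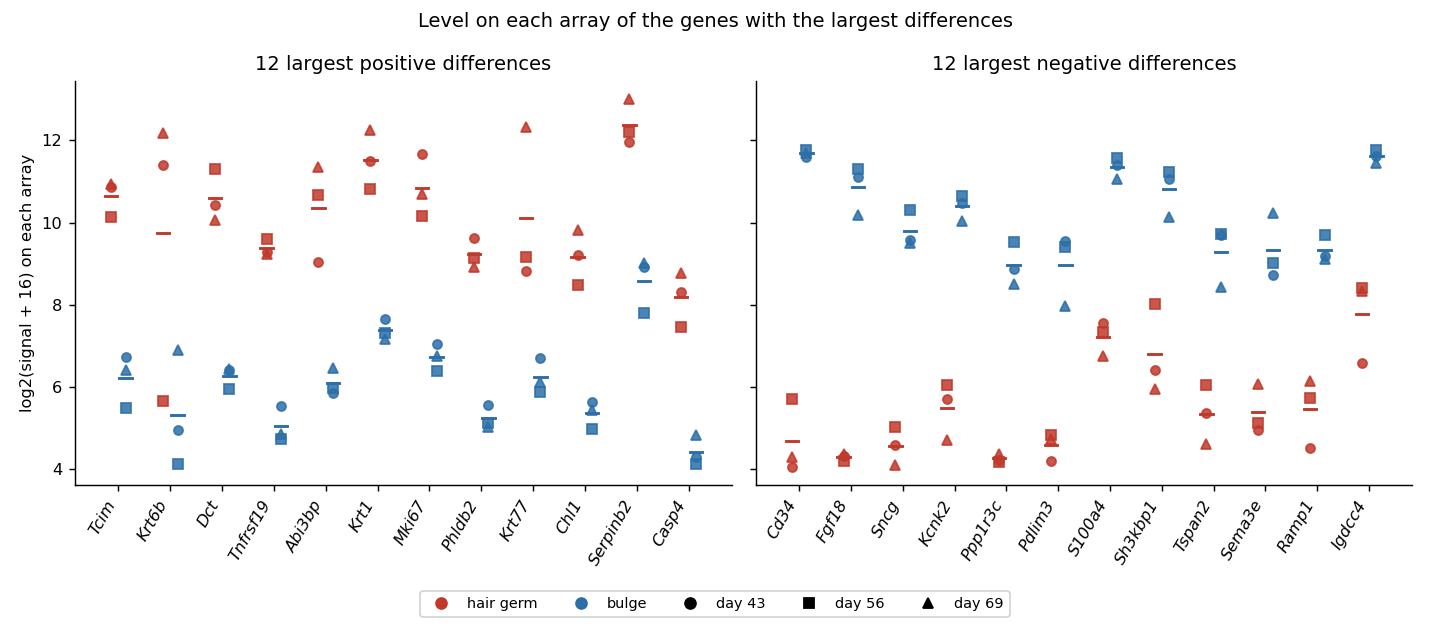
Level of 24 genes on each array, as log2(signal + 16), for the 12 largest called differences in each direction; red points are hair germ, blue points bulge, the symbol gives the day and the bar the mean of 3 arrays. Only Krt6b has a hair germ value (5.67, day 56) inside the range of its bulge values.

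Genes of other cell types were measured beside these. Keratinocyte differentiation genes were higher in hair germ for 8 of 15 tested and lower for 1: Krt1 (4.14), Krt77 (3.87) and Krtdap (3.43), genes of cells above the basal layer, were higher, and Calml3 (-2.81) lower. Their summed signal over 22 genes on the array was 30863, 28037 and 66426 in hair germ and 20873, 19912 and 16274 in bulge. Of 6 melanocyte markers tested, the pigment enzymes and melanosome genes Dct (4.34), Tyrp1 (3.73) and Pmel (3.16) were higher and Mitf (-2.18) lower. Dct was at 10.44, 11.31 and 10.07 in hair germ and 6.41, 5.95 and 6.43 in bulge, and the summed melanocyte signal was 3158, 5680 and 2714 against 2979, 3335 and 2609. Kit was above the array median on 2 hair germ arrays, Tyr and Sox10 on 1 each, and all 3 on no bulge array. Fibroblast and papilla markers summed to 3711 to 4691 in hair germ, 6045 to 7112 in bulge and 43992 to 57735 in dermal papilla, with 1 of 19 called, Spon1 (1.54), and 3 higher without the hair germ array of day 43 or with day 56 alone. Leukocyte markers summed to 1284 to 1818 in hair germ and 1164 to 1471 in bulge, with 3 of 10 higher (H2-Eb1, Cd74 and H2-Aa) and 2 lower (Ptprc, the gene of CD45, at -1.33, and Cd3g); 1 was higher without the bulge array of day 43 or 56 or the hair germ array of day 56, and none or 1 lower without the bulge array of day 43 or 56. Endothelial markers summed to 98.2 to 343 and 103 to 129, with none of 2 called, and Pecam1 and Cdh5 lay below the median on all 6 arrays. Upper follicle and infundibulum markers summed to 5087 to 8537 in hair germ and 2863 to 3143 in bulge, with 4 of 7 higher (Krt79, Cst6, Defb6 and Lrig1), 1 lower (Aqp3) and a median of 1.33. Without the bulge array of day 69, or with day 56 alone, 1 was higher. Muscle markers summed to 382 to 498 against 217 to 243, with Acta2 and Acta1 of 3 higher, and 1 without any single array but the hair germ array of day 56. Merkel cell markers summed to 176 to 447 against 86.2 to 103, with neither Krt8 (1.02) nor Sox2 (1.18) called. Sebaceous gland markers summed to 4607 to 6068 against 2759 to 3546. The part of these cells in the results was not tested.

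Most established bulge genes were higher in bulge. Of 23 bulge stem cell markers tested, 18 were lower in hair germ and 1, the integrin Itga6 (1.11), higher, with a median difference of -1.84 beside 0.10 over all genes. The 18 included Cd34, whose direction the gate fixed. The list was chosen with earlier results known and is no independent evidence of direction. Ltbp2 (-2.80), a matrix protein that binds latent growth factors, Cxcl14 (-2.41), a chemokine, and Ccn2 (-2.19), a matricellular protein, stood beside Sema3e and Kcnk2. Krt15 and Col17a1, commonly used for bulge cells, did not pass: Krt15 was at 13.29, 12.93 and 13.07 in hair germ against 13.01, 13.23 and 12.96 in bulge, and Col17a1 at 12.49, 11.90 and 12.62 against 12.22, 12.40 and 12.34. Their differences were 0.03 (SE 0.67) and 0.02 (SE 0.39). Lgr5, a receptor for R-spondins, was at 7.58, 9.65 and 8.10 in hair germ and 9.51, 9.72 and 9.44 in bulge, so the populations overlapped on day 56. Its call (-1.11, SE 0.33, adjusted p = 0.04) was lost without the day 43 or day 69 array of either population, with day 56 as the only hair germ array, with a pseudocount of 1, with no filter and with no day term (no replicate block). With the day 56 array alone for hair germ, 12 of the 23 markers were lower.

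Calls among known stem cell transcription factors were mostly lower in hair germ. Of 22 factors with known roles in follicle stem cells, 9 were lower and 2 higher in hair germ, beside 7.56% and 12.2% of all genes. The list's median difference was -0.48. On days 43, 56 and 69 it was -0.67, 0.07 and -0.63, and with day 56 as the only hair germ array it was 0.04. Nfatc1, which restrains the cycling of bulge cells, was at 7.6, 7.59 and 7.11 in hair germ and 10.43, 10.57 and 9.78 in bulge (difference -2.83, SE 0.22, adjusted p = 2.8e-05). Foxc1 (-2.44, SE 0.27), a forkhead factor that maintains quiescence, was at 7.17, 7.93 and 7.87 against 10.04, 10.18 and 10.07. Sox9 (-2.33, SE 0.34), needed to form the stem cell pool, was at 7.44, 7.03 and 6.06 against 9.24, 8.80 and 9.50. Lhx2, a LIM homeobox factor, was at 7.78, 9.11 and 7.76 against 10.64 on days 43 and 56 and 10.59 on day 69. For each of these 4 the highest hair germ value lay below the lowest bulge value. Tbx1 (-1.84), Foxp1 (-1.75) and Tcf7l1 (-1.55), a repressor of WNT target genes, were also lower. In a fit with the day 56 array alone for hair germ, the calls of Lhx2 (difference -2.41 in the full fit) and Tcf7l1 were lost. Trp63 (0.49), Nfix (0.21) and Vdr (-0.06) were not called.

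Of 9 SOX genes tested, 4 were higher in hair germ: Sox6 (3.08), Sox4 (2.24), Sox7 (1.87) and Sox15 (1.59). Sox9 was lower, and 4 were not called, Sox2 (1.18), Sox13 (0.70) and Sox12 (-0.32) among them. Sox6, Sox7 and Sox15 lay above the array median in hair germ but on no bulge array, and could pass the filter only through hair germ or dermal papilla. Their count therefore supports nothing beyond their values. Sox6 was at 8.31, 8.62 and 7.93 in hair germ and 5.44, 5.07 and 5.12 in bulge, where its probe set lay below the array median on all 3 arrays. Sox4, a target of WNT and transforming growth factor beta signals, was at 9.70, 9.83 and 10.11 against 7.61, 7.51 and 7.80. The 2 stem cell factors on this side were Klf5 (1.85), known from proliferating basal cells, and Ovol1 (1.78), a regulator of epidermal differentiation. Another was Tfap2c (2.07), an AP-2 factor of surface epithelium. Of 30 lineage factors, 9 were higher and 4 lower, Hr (-1.49) and Dlx5 (-1.08) among the latter; the lower count was 1, 1 and 2 without the bulge array of days 43, 56 and 69, 2 without the hair germ array of day 43 and 0 with day 56 alone, when 4 were higher. Hox genes, which carry positional identity, gave 5 of 16 lower, led by Hoxd8 (-2.53) and Hoxb6 (-2.21), and 1 higher, Hoxc4 (1.97); the 5 were 3 without the bulge array of day 43 or 56 and 2 with day 56 alone. The genome organizer Satb1 (2.83) led 10 chromatin regulators of 35 that were higher, with Hells (1.66), a remodeler linked to DNA methylation. The list median of 0.20 turned to -0.01 after median centring. That count was 5 and 4 without the bulge arrays of days 43 and 69 and 2 with day 56 alone.

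**Figure D2:**
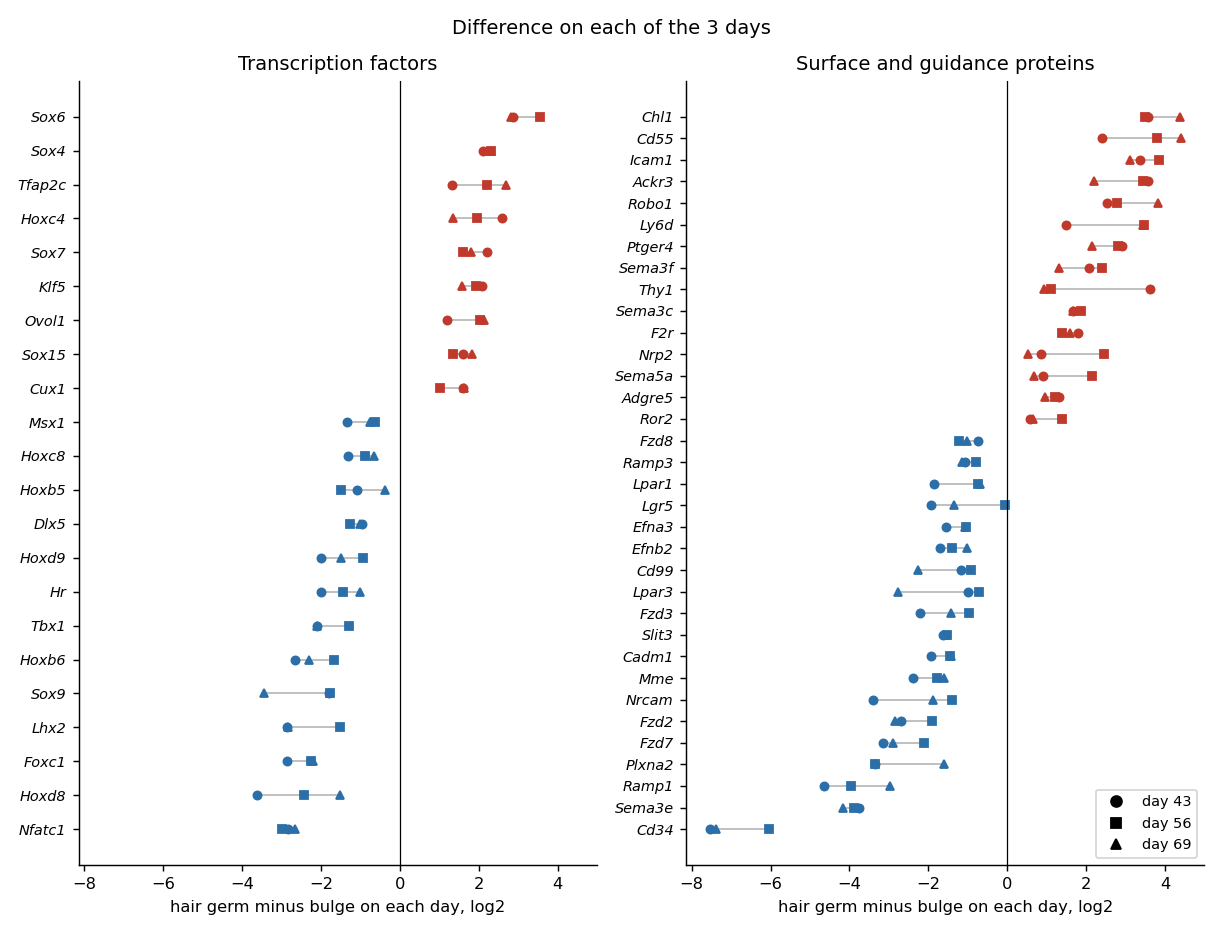
Difference hair germ minus bulge on each of the 3 days (symbols) for 22 transcription factors and 34 surface or guidance proteins named by the rule, on the log2(signal + 16) scale. The rule took only genes with the same sign on all days, and Lgr5 on day 56 lies closest to 0.

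Cell division genes were called as a group. Of 42 mitosis genes tested, from 51 on the array, 40 were higher in hair germ and none lower, beside 12.2% of all genes higher; the median difference was 2.40. Mki67, the proliferation antigen Ki-67, was at 11.66, 10.16 and 10.70 in hair germ and 7.05, 6.4 and 6.75 in bulge (difference 4.11, SE 0.37, adjusted p = 5.6e-05). Anln (3.60), a scaffold of the cleavage furrow, was at 10.89, 9.62 and 9.41 against 6.72, 5.87 and 6.53. Top2a (3.50), the topoisomerase that untangles sister chromosomes, was at 10.53, 9.55 and 9.50 against 6.66, 5.88 and 6.54. Cdc20 (3.47), the activator of the anaphase-promoting complex, was at 11.50, 9.28 and 10.69 against 7.49, 6.48 and 7.08. Hair germ lay above bulge on all arrays for these 4 genes, and it was highest on day 43. The day medians of the list's differences were 2.86, 2.28 and 1.95, and 41 of the 42 differences were positive on each day.

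Because 20 of the 42 genes were above the array median on no bulge array, they could pass the filter only through hair germ or dermal papilla. Of the 22 above the median on at least 1 bulge array, 20 were higher. With day 56 as the only hair germ array 30 of 42 were higher, and 39 or 40 without any single array. Foxm1, the factor that drives many of these genes, was at 5.92, 6.75 and 6.62 in hair germ and 6.33, 6.66 and 6.23 in bulge, a difference of 0.02 (SE 0.29), and was not called. Bub3 (0.18), a checkpoint protein, was the other member not called.

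DNA replication genes followed in part. Of 35 tested, 16 were higher and 1 lower, with a median of 0.75. Pole (2.86), the catalytic subunit of a replicative polymerase, was at 8.88, 8.08 and 7.06 in hair germ and 5.66, 4.28 and 5.50 in bulge. Uhrf1 (2.31), which reads hemimethylated DNA, Rrm2 (1.95), a subunit of ribonucleotide reductase, Tk1 (1.93), thymidine kinase, and Cdt1 (1.61), a licensing factor, were higher too. Pcna (0.23), the sliding clamp, was not called. The count of 16 was 5, 7 and 7 without the bulge array of days 43, 56 and 69, 6 and 10 without the hair germ array of days 43 and 56, and 4 with day 56 alone. Of 20 genes for entry into the cycle, 6 were higher and none lower, with cyclins Ccnd2 (1.29) and Ccnd1 (1.07) and the inhibitor Cdkn1a (1.48) among them. That count was 2 and 3 without the bulge arrays of days 43 and 56, 2 and 4 without the hair germ arrays of those days and 2 with day 56 alone. Cdkn1a had a second probe set of opposite sign, and its call was lost when the kept probe sets were averaged.

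Promoters of the mitosis genes are shown because the group moved together. Late cell cycle genes are known for a CHR element (TTTGAA) and CCAAT boxes (CCAAT) close to the start site. Both strands were searched in the 250 bases before the start in RefSeq promoters (GRCm38.p6), and adjoining motifs may share end letters. Of 35 mitosis genes tested with an entry, 15 (42.9%) held a CHR element, 27 (77.1%) a CCAAT box and 14 (40%) both, against 12.4%, 40.4% and 4.54% of 6359 tested genes with an entry and 18.3%, 37.5% and 6.45% of all 27025 genes with one. For the replication genes these shares were 13.8%, 62.1% and 6.90% of 29. A match is a description of letters, and no binding was measured. The 120 bases before the start are given for the 4 mitosis genes with the largest differences, among those the naming rule allows, that held both motifs there, at chr11:99024190-99024309 (Top2a, minus strand), chr4:118437344-118437463 (Cdc20, minus strand), chr7:127042421-127042540 (Kif22, minus strand) and chr19:37376262-37376381 (Kif11, plus strand). This choice left out the genes of a whole chromosome, whatever their differences. The 4 sequences read from -120 to -1 on the gene's strand, with the motifs in capitals on either strand.
Top2a: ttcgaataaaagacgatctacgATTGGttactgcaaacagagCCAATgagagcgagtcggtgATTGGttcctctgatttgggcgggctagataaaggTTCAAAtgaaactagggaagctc
Cdc20: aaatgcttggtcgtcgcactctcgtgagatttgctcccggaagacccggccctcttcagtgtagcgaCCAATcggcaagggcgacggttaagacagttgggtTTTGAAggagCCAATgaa
Kif22: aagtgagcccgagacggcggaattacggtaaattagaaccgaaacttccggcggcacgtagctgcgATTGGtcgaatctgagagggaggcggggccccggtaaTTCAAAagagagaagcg
Kif11: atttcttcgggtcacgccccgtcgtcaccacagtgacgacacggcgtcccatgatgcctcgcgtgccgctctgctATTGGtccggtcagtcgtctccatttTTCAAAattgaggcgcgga
The CHR element began at -23, -18, -17 and -19 in that order, with CCAAT boxes upstream of it in all 4 promoters. Kif22 and Kif11 are motor proteins of the spindle, with differences of 2.80 (SE 0.26) and 2.04.

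**Figure D3:**
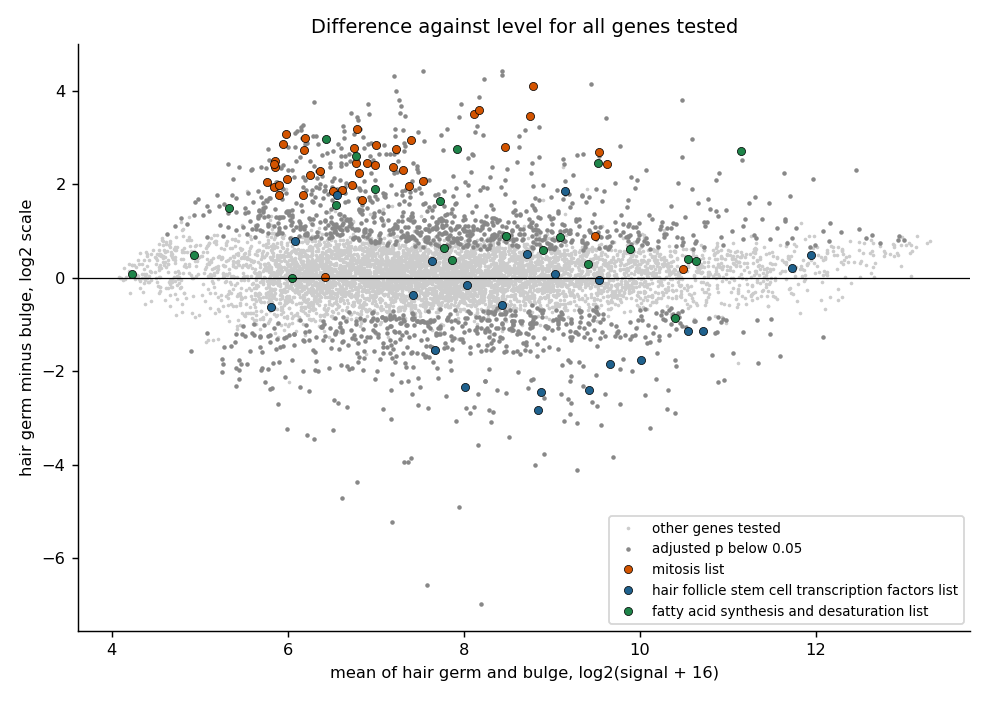
Difference hair germ minus bulge (vertical) against the mean level of both populations (horizontal), on the log2(signal + 16) scale, for 7796 genes; dark grey points are called, and 3 lists are coloured. Of the 42 mitosis genes (orange), 40 are called and lie above 0, and 9 of 22 stem cell transcription factors (blue) are called below it.

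WNT genes separated by role. Of 11 ligands and R-spondins tested, 4 were higher in hair germ and none lower. Of these, Wnt16, Wnt5a and Wnt6 were below the array median on every bulge array, so they could pass the filter only through hair germ or dermal papilla. Wnt16 was at 7.17, 6.27 and 7.33 in hair germ and 4.51, 4.85 and 4.37 in bulge (difference 2.34, SE 0.34, adjusted p = 9.4e-04). Wnt5a (2.10), Wnt10a (1.32) and Wnt6 (1.30) were the others, and 2 of 4 calls, those of Wnt16 and Wnt5a, were lost with day 56 alone. Among receptors, 5 of 11 were lower and 1, Ror2 (0.87), a receptor for Wnt5a, higher, a call held without the hair germ array of day 43 but lost without any other single array. Fzd7 was at 8.12, 9.20 and 7.93 in hair germ and 11.26, 11.31 and 10.82 in bulge (difference -2.71, SE 0.26, adjusted p = 8.9e-05), and Fzd2 at 7.47, 8.52 and 7.6 against 10.17, 10.42 and 10.46 (-2.48). Fzd3 (-1.53), Lgr5 (-1.11) and Fzd8 (-0.99) completed the 5; with day 56 alone 2 of 11 were lower, and 3 without the bulge array of day 43 or 69 or the hair germ array of day 43 or 69.

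Secreted inhibitors divided by gene. Apcdd1 (2.58), Notum (1.55) and Dkk2 (1.53) were higher, while Dkk3 (-1.63) and Sfrp1 (-1.32) were lower, of 10 tested; 1 was lower without the bulge array of day 43 or 69 and none with day 56 alone. Apcdd1, a membrane inhibitor that is itself a WNT target, was at 11.73, 11.16 and 12.43 in hair germ and 8.99, 9.32 and 9.25 in bulge. Notum, an enzyme that inactivates WNT ligands, and Dkk2 were at mean levels of 12.32 and 12.34 in dermal papilla, far above both epithelial populations. Axin2, a common readout of WNT signalling, was at 8.48, 8.20 and 8.43 in hair germ and 7.11, 6.56 and 7.07 in bulge (difference 1.46, SE 0.21, adjusted p = 9.6e-04). Of 25 effectors and targets, 7 were higher and 4 lower; Ctnnb1 (-0.23), which encodes beta-catenin, was not called. The lower count was 2 without the day 43 or day 69 array of either population and 0 with day 56 alone, and the higher count was 4 without the hair germ array of day 56.

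BMP signalling, which holds bulge cells at rest, differed in ligands, inhibitors and target genes. Bmp6 was at 4.97, 4.34 and 4.40 in hair germ and 8.03, 8.13 and 7.92 in bulge (difference -3.46, SE 0.43, adjusted p = 3.6e-04). Bmp4 was at 7.65, 7.79 and 7.02 against 5.31, 4.88 and 5.11 (2.38, SE 0.24), and its mean in dermal papilla was 12.11. Bmp2 (1.20) and Bmp1 (1.23), a protease, were higher and Gdf10 (-1.53) lower; of the 6 ligands tested, 1 in place of 2 was lower without the day 43 array of either population, without the bulge array of day 56 and with day 56 alone. The call of Bmp2 was lost under both scalings, with no filter and with no trend. It was also lost without the bulge array of either later day and without the hair germ array of either earlier day. Under either scaling 2 ligands in place of 3 were higher. Of 11 inhibitors 6 were lower and none higher. Grem1, a secreted BMP antagonist, was at 6.18, 6.91 and 6.02 in hair germ and 9.52, 10.39 and 9.93 in bulge (difference -3.58, SE 0.27, adjusted p = 2.2e-05). Smad6 (-2.18), Fst (-2.01), Fstl1 (-1.83) and Bambi (-1.32) were lower too. Noggin (Nog) lay below the filter, with 1 bulge array above the median.

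BMP response genes were mostly lower in hair germ: 7 of 12, with 1 higher, Gata3 (1.26), and a median of -0.96. Id2, an inhibitor of DNA binding induced by BMP, was at 9.84, 10.06 and 9.43 in hair germ and between 11.99 and 12.01 on the 3 bulge arrays (difference -2.22, SE 0.36, adjusted p = 0.0019). Hey1 (-2.34) and Id3 (-1.73) were lower, and Id1 (-0.59) was not called. On days 43, 56 and 69 the median difference of the list was -1.35, -0.43 and -1.28. On day 56 alone for hair germ none of the 12 was called lower, and 1 of 11 inhibitors. Leaving out the bulge array of day 43, 56 or 69 left 3, 5 and 3 of the 12 and 3, 4 and 4 of the 11, and leaving out the hair germ array of day 43 or 69 left 4 of the 12 and 3 of the 11.

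Transforming growth factor beta genes were divided, with 3 higher and 5 lower of 15. Thbs1 (2.49), an activator of latent factor, and the target Pmepa1 (2.05) were higher, Tgfb2 (-0.92) lower, and the receptor Tgfbr1 (-1.43) was lower in the receptor list, where 2 of 14 were lower and 1 without any single array. The 5 lower ones were 2 without the bulge array of day 43 or 69 or the hair germ array of day 43, 3 without the bulge array of day 56 and 2 with day 56 alone.

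Growth factor genes differed by family. Of 5 genes of the FGF family tested, Fgf13 (1.12) was higher, Fgf18 and Fgf1 (-1.39) were lower, and Fgf7 (0.71) and Fgf11 (0.34) were not called. The call of Fgf13 was lost without the bulge array of day 56 or 69 or the hair germ array of day 43 or 56, and that of Fgf1 without the bulge array of day 43 or 69; both were lost with day 56 alone. Of 8 genes of the EGF family and its regulators, 5 were higher and none lower, with a median of 1.11. Epgn (epigen), an EGF receptor ligand, was at 9.33, 10.55 and 9.61 in hair germ and 6.49, 5.69 and 6.15 in bulge (difference 3.72, SE 0.37, adjusted p = 9.7e-05). Hbegf, another ligand, was at 9.57, 9.50 and 10.26 against 7.05, 5.99 and 6.55 (3.25, SE 0.26). Egfr (-0.58), the receptor, and Erbb2 (0.53) were not called. Of 12 FGF receptor and MAPK feedback genes, 6 were higher: Fgfbp1 (2.10), Errfi1 (2.03), Dusp6 (1.86), Spry1 (1.26) and Fgfr2 (0.78) were among them. Dusp6, a phosphatase induced by ERK activity, was at 7.34, 8.23 and 7.86 against 5.80, 5.4 and 6.65. With day 56 alone 4 of the 12 and 3 of the 8 were higher, and 3 of the 8 without the bulge array of day 69. Immediate early genes, which dissociation of tissue can induce, gave 8 of 24 higher, led by Fosl1 (3.47) and Nr4a1 (2.10), and 1 lower. That count was 4 without the bulge array of day 56 or 69 or the hair germ array of day 56.

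Genes of the list of other growth factors and cytokines were called in both directions. Of 25 growth factors and cytokines, 10 were higher and 7 lower. Tslp (3.14), an epithelial cytokine, was at 9.76, 6.81 and 6.45 in hair germ and 4.94, 4.57 and 4.09 in bulge. Il1r2 (2.65), a decoy receptor for interleukin 1, Gdnf (2.46), a neurotrophic ligand, Pdgfc (1.98) and Vegfa (1.91) were higher. Cxcl14 (-2.41), Angptl7 (-2.38), Ptn (-1.88) and Bdnf (-1.84) were lower. Of the 10 and 7, 7 and 4 were called with day 56 alone.

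Interferon response genes differed least on day 56, the hair germ array with the lowest Gapdh ratio (2.97): the list medians were 1.36, 0.67 and 1.14 on the 3 days. Of 16 tested, 10 were higher and 1, Ifitm2 (-1.55), lower. Gbp2, a guanylate-binding protein, was at 10.39, 6.13 and 8.19 in hair germ and 6.14, 5.19 and 5.54 in bulge (difference 2.61, SE 0.76, adjusted p = 0.034), so the day 56 value fell within the bulge range. Rtp4 differed by 3.28, 0.78 and 1.8 on the 3 days and Ifitm3 (1.67) by 2.62, 1.56 and 0.84. With day 56 as the only hair germ array none of the 16 was higher. The count was 2, 4 and 2 without the bulge array of days 43, 56 and 69, and 3 and 5 without the hair germ array of days 43 and 69.

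**Figure D4:**
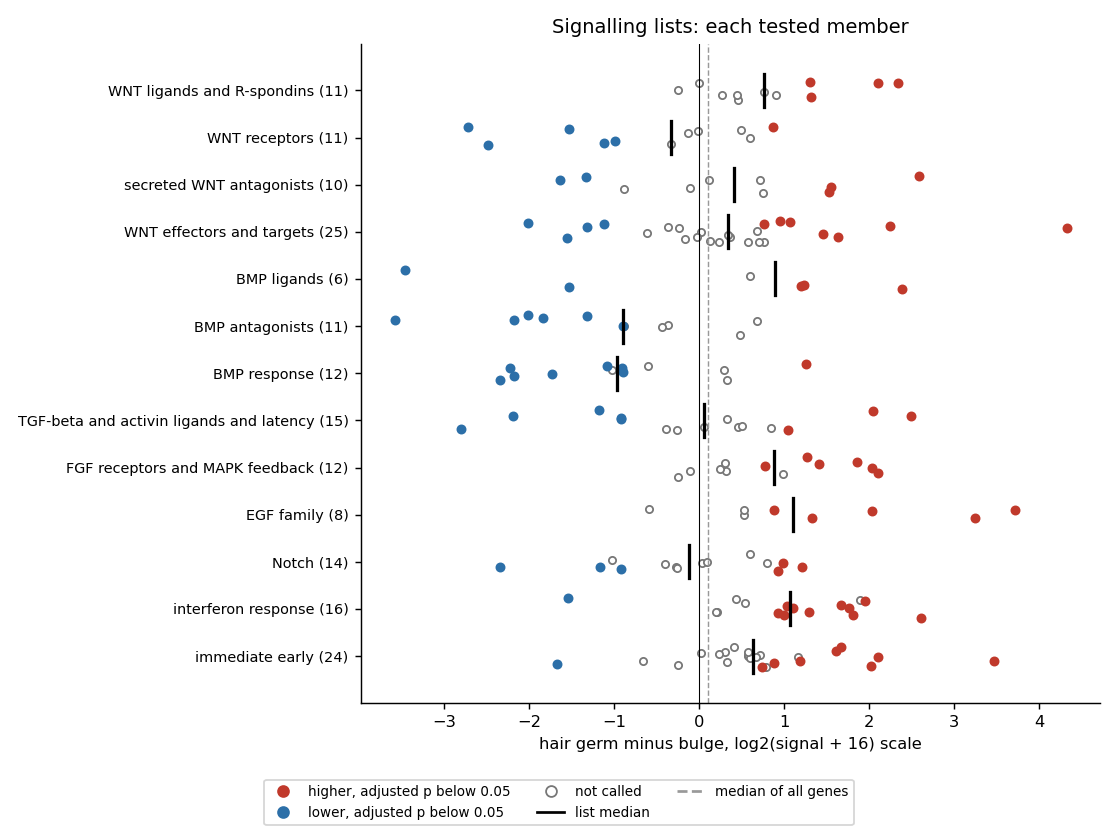
Difference hair germ minus bulge, on the log2(signal + 16) scale, for each tested member of 13 signalling lists; filled points are called, black bars are list medians, and the dashed line is the median of all genes (0.10). BMP antagonists and BMP response genes lie mostly to the left, with medians of -0.90 and -0.96, and the EGF family to the right, with a median of 1.11.

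Surface proteins separated the populations in both directions. Of 36 CD antigens and immunoglobulin-type proteins tested, 9 were higher and 8 lower in hair germ, with a median of -0.14. The 8 included Cd34, whose direction the gate fixed and whose values are given above. On the hair germ side Cd55, a complement regulator, was at 8.28, 8.72 and 10.13 against 5.87, 4.92 and 5.73 (difference 3.53, SE 0.36, adjusted p = 1.1e-04). Icam1, an adhesion molecule for leukocyte integrins, was at 9.49, 9.72 and 9.77 against 6.13, 5.87 and 6.67 (3.44, SE 0.23, adjusted p = 1.4e-05). Ly6d (2.80) and Thy1 (1.88) were also higher. On the bulge side stood Nrcam (-2.23), Mme (-1.93), a surface peptidase, Cadm1 (-1.60) and Cd99 (-1.45). With day 56 alone 6 were higher and 2 lower. Tspan2, a tetraspanin, was at 5.37, 6.05 and 4.61 in hair germ and 9.69, 9.73 and 8.44 in bulge, and all 3 of its kept probe sets had the same sign. Among integrins 1 of 9 was called, Itga6, at 11.69, 10.87 and 11.31 against 10.09, 9.87 and 10.60, and that call was lost without the bulge array of day 43 and with day 56 alone, while 4 were called without the hair germ array of day 69.

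Guidance genes were called in both directions, beside 12.2% of all genes higher and 7.56% lower. Of 30 tested, 7 were higher and 5 lower. Robo1, a receptor for Slit ligands, was at 7.59, 7.69 and 8.24 in hair germ and 5.07, 4.91 and 4.42 in bulge (difference 3.04, SE 0.29, adjusted p = 7.2e-05), while the ligand Slit3 (-1.57) was lower. Sema3e was at 4.97, 5.14 and 6.07 against 8.72, 9.03 and 10.25, and Plxna2, a plexin receptor, at 6.49, 6.55 and 7.16 against 9.83, 9.89 and 8.76 (-2.76). Sema3f (1.92), Sema3c (1.73) and Nrp2 (1.27) were higher, Efnb2 (-1.37) lower. The count of higher genes was 3, 3 and 4 without the bulge array of days 43, 56 and 69, 3 without the hair germ array of day 56 and 4 with it alone; that of lower genes was 9 without the hair germ array of day 56 and 3 with it alone.

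Channels and receptors of soluble signals were called in both directions, with shares higher near the 12.2% of all genes. Of all genes 7.56% were lower. Among channels 3 of 19 were higher and 5 lower: Clca3a1 (3.22) and its close relative Clca3a2 (2.53), whose probe sets may share transcripts, were higher, and Kcnk2 (-4.90), Cacna1c (-2.71), a calcium channel subunit, and the water channel Aqp3 (-2.58) lower. Among G protein coupled receptors and partners 4 of 23 were higher and 4 lower. Ackr3, a scavenging receptor for CXCL12, was at 10.42, 9.32 and 9.51 against 6.86, 5.89 and 7.32 (3.06, SE 0.32), and Ptger4 (2.62), a prostaglandin receptor, was higher. Ramp1, the partner of the receptor for the neuropeptide CGRP, was at 4.52, 5.74 and 6.15 against 9.18, 9.70 and 9.12 (-3.86, SE 0.35). The lower count was 1, 2 and 1 without the bulge array of days 43, 56 and 69, 2 without the hair germ array of day 69 and 1 with day 56 alone.

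Keratins and matrix genes were called in both directions as well. Of 14 keratins tested 7 were higher and 2 lower, with a median of 1.56; 1 was lower without the bulge array of day 56 or 69. Krt14, the basal keratin whose name the green reporter carries, was at 13.19, 12.58 and 13.29 in hair germ and 10.70, 10.80 and 11.25 in bulge (2.11, SE 0.26), while its partner Krt5 (0.25) was not called. Krt79 was at 11.17, 11.21 and 11.19 against 8.81, 8.49 and 7.79 (2.83, SE 0.34), and Krt75, a companion layer keratin, at 5.0, 5.33 and 4.30 against 8.08, 8.37 and 7.99 (-3.27, SE 0.32). Matrix genes gave 6 of 36 higher and 7 lower, beside 12.2% and 7.56% of all genes. Their median of 0.11 turned to -0.05 after quantile normalization and -0.10 after median centring. Col6a1 was at 7.48, 7.26 and 6.31 in hair germ and 10.81, 11.14 and 10.44 in bulge (-3.78, SE 0.23), and Col6a2 (-3.08), its chain partner, Smoc1 (-2.77) and Ecm1 (-2.74) were lower. Smoc2 (3.11) and Thbs2 (2.71) were higher; Col1a2 (-0.74) was not called. With day 56 alone 8 were higher and 3 lower. Of 21 cadherin, desmosome and adherens junction genes, 4 were higher, led by desmoglein Dsg2 (1.79), and 1 lower, the plakophilin Pkp2 (-1.76), with 1 higher with day 56 alone; the call of Pkp2 was lost without the bulge array of day 43 or 56. Of 13 tight and gap junction genes, 3 were higher, led by the connexin Gja1 (2.24), and 1 lower, F11r (-0.80). Of these 3, 1 was higher without the bulge array of day 43 or 69, and the call of F11r was lost without the day 43 or day 69 array of either population and with day 56 alone.

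Lipid synthesis was one of the metabolic groups with many calls. Of 22 fatty acid synthesis genes 11 were higher and 1, Elovl5 (-0.86), lower, with a median of 0.75; that of Elovl5 was lost without the bulge array of day 43 or 56 or the hair germ array of day 56. Scd2, a desaturase, was at 9.20, 10.10 and 8.58 in hair germ and 6.95, 6.86 and 5.82 in bulge (difference 2.75, SE 0.43, adjusted p = 0.0013), and Me1, which supplies NADPH for synthesis, at 6.90, 8.02 and 8.84 against 5.51, 4.61 and 4.70 (2.98, SE 0.50). Fabp5 (2.72), a fatty acid carrier, Elovl4 (2.61), an elongase, Scd1 (2.46) and Fasn (0.89), the synthase, were higher. Of these, Scd1, Fads1 and Fasn are also on the list of sebaceous gland genes, where 4 of 9 were higher, and 2 without the bulge array of day 43. Fabp5 is also on the differentiation list and Elovl4 on a list of barrier lipid genes. The call of Fasn was lost under both scalings, with a pseudocount of 1, with no filter and with no trend. It was kept without the bulge array of day 56 and lost without any other single array. The count of 11 was 8 to 10 without any 1 array and 9 with day 56 alone. Cholesterol synthesis gave 6 of 21 higher and none lower, with a median of 0.54: Cyp51, the lanosterol demethylase, was at 8.62, 7.85 and 8.49 against 6.18, 6.08 and 6.0 (2.23, SE 0.26). That count was 3 and 2 without the bulge arrays of days 56 and 69, 2 without the hair germ array of day 56 and 6 with it alone. Fatty acid oxidation and peroxisome genes gave none higher and 4 of 23 lower, with Ppargc1a (-1.51), a coactivator of mitochondrial genes, and Cat (-0.84), catalase; the lower count was 1 to 3 without any 1 array and 1 with day 56 alone.

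Amino acid genes were the other group with many calls. Of 21 genes of amino acid and polyamine metabolism, 9 were higher and none lower, with a median of 0.67. Sat1, which acetylates polyamines, was at 10.03, 9.82 and 10.60 in hair germ and 7.49, 7.09 and 8.10 in bulge (2.59, SE 0.21, adjusted p = 3.5e-05). Hal (2.43), histidase, Arg2 (2.36), an arginase, and Cbs (1.8), of transsulfuration, were higher. The serine pathway enzymes Psat1 (2.19), at 10.71, 9.69 and 10.61 against 8.62, 8.0 and 7.81, and Phgdh (1.74) and the mitochondrial folate enzyme Mthfd2 (1.46) were 3 of the 4 higher genes among 16 of the pentose phosphate, serine and one-carbon list. With day 56 alone 5 of the 21 and 1 of the 16 were higher; the 9 were 5 without the day 43 array of either population, and the 4 were 2 without the bulge array of day 43. The call of Phgdh was lost when its kept probe sets were averaged and without the bulge array of day 56. Solute carriers gave 21 of 133 higher, near the background of 12.2%, and 5 lower. Slc38a4 (3.51), an amino acid transporter, was at 7.86, 9.92 and 8.25 against 5.18, 5.04 and 5.29, and Slc24a3 (3.19), an ion exchanger, and Slc22a4 (3.09), a carnitine and ergothioneine transporter, followed. The 21 were 12, 13 and 13 without the bulge array of days 43, 56 and 69, and 10 with day 56 alone; the 5 were 2, 1 and 3 without the bulge arrays of days 43 and 69 and the hair germ array of day 43, and 1 with day 56 alone.

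Central carbon and respiratory genes had medians near that of all genes. The counts below stand beside 12.2% of all genes called higher and 7.56% called lower. Of 17 glycolysis genes, 3 were higher: Slc16a1 (2.13), the monocarboxylate transporter, Slc2a1 (1.11), the glucose transporter GLUT1, and Pfkp (1.03); Aldoc (-1.67) was lower. Slc16a1 was at 9.08, 6.18 and 6.92 in hair germ and 5.32, 5.33 and 5.15 in bulge, with the day 43 value far above the others. Its call and that of Slc2a1 were lost without the bulge array of day 43 and with day 56 alone, when none of the 17 was higher. The list median of 0.09 turned to -0.01 after quantile normalization and -0.12 after median centring. Of 57 oxidative phosphorylation genes 2 were higher and 3 lower, and the median of 0.14 turned to -0.13 and -0.07 under the same scalings; without any single array 0 to 3 were higher and 0 to 2 lower. Against 19.8% of all genes, limma called none of 74 mitochondrial ribosomal proteins. An unadjusted limma p below 0.05 held for 2597 of all 7796 genes tested and for 9 of these 74 proteins. Their median of 0.10 turned to -0.03 and -0.11. In the tricarboxylic acid cycle list Me1 and Pcx (1.07) were higher and Idh2 (-1.27) and Me2 (-1.21) lower, with 3 and 2 of 30 called; 1 was higher without the bulge array of day 43, and 1 or none lower without any single array other than that of hair germ on day 56, and none with day 56 alone. The list median of 0.13 turned to -0.08 with median centring. Detoxification gave 6 of 31 higher, led by Mgst2 (3.69), a microsomal glutathione transferase at 9.07, 8.61 and 9.72 against 5.51, 5.29 and 5.53, and 4 lower, among them Gstt1 (-1.57) and Gstm5 (-1.27); with day 56 alone 1 was higher and 1 lower. The 6 were 3 and 2 without the bulge arrays of days 43 and 56 and 2 and 3 without the hair germ arrays of those days, and the 4 were 1 and 2 without the bulge arrays of days 43 and 56. The median of 0.02 turned to -0.22 and -0.19 under the scalings.

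Growth machinery lists had no member called lower, and their shares higher ranged from below to above the background of 12.2%. Ribosome biogenesis had 7 of 35 higher and none lower, with a median of 0.36 that stayed above 0 at 0.23 and 0.15 under both scalings, but none of the 35 was called with day 56 alone, a fit with 2 residual degrees of freedom in which the median was 0.52, and 2, 3 and 3 without the bulge array of days 43, 56 and 69 and 3 and 4 without the hair germ array of days 43 and 56. After quantile normalization and median centring, 4 and 2 of the 35 were higher. Translation factors and tRNA synthetases had 8 of 34 higher, Eif1a (1.24) among them, and none lower, with a median of 0.34. That count was 1, 2 and 1 without the bulge array of days 43, 56 and 69, 2, 5 and 3 without the hair germ array of those days, 2 with day 56 alone and 1 after median centring. Cytosolic ribosomal proteins had 3 of 46 higher and none lower. Their median of 0.54 was 0.01 after quantile normalization and 0.33 after median centring. The proteasome had 5 of 36 higher, near the background, and 1 under either scaling. Of the 5, Psmb10 (1.15), Psmb9 (1.11) and Psmb8 (1.04) are subunits of the interferon-induced form. The proteasome count was 1 without any 1 bulge array or the hair germ array of day 43, 3 and 2 without those of days 56 and 69, and 1 with day 56 alone.

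**Figure D5:**
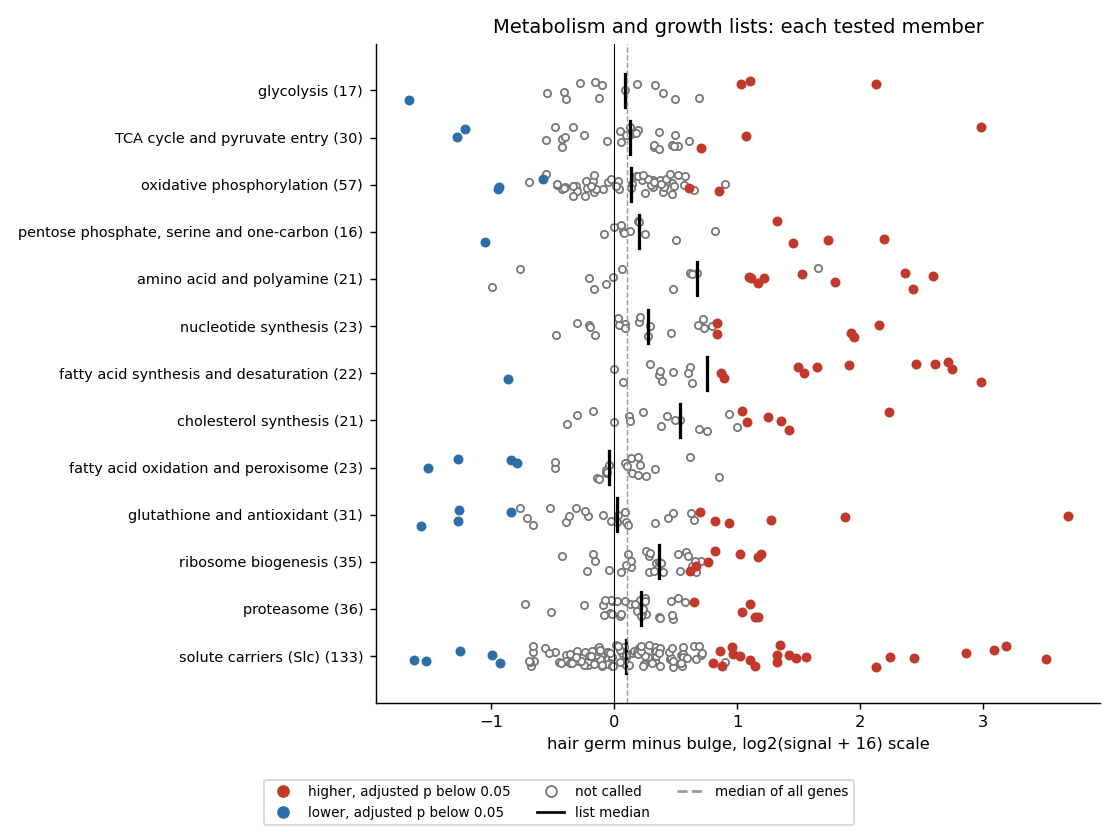
Difference hair germ minus bulge, on the log2(signal + 16) scale, for each tested member of 13 metabolism and growth lists; filled points are called, black bars are list medians, and the dashed line is the median of all genes (0.10). Fatty acid synthesis (median 0.75) and amino acid genes (0.67) lie to the right of it, while glycolysis (0.09) and oxidative phosphorylation (0.14) lie beside it.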

How the data were processed

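Sorted mouse cells were measured on 9 single-colour Affymetrix arrays after 2 rounds of amplification, per the labels' protocols. The authors deposited linear intensity values, named as GCOS and MAS5 signals per the submitters' processing notes; versions, the scaling target and detection calls are not given in the sources used here. From these, log2(signal + 16) was taken without further scaling. Of 22690 probe sets, 64 controls were set aside, and 12801 lay above their array's median on at least 3 of 9 arrays. Platform annotation gave 1 gene for 20380 probe sets, several for 691 and none for 1555; probe sets with several or none were not named. Each of 7796 genes was its brightest kept probe set. A limma 3.58.1 model (R 4.3.3) with population and day used all 9 arrays, with 4 residual degrees of freedom (eBayes with trend; two-sided, Benjamini-Hochberg, threshold 0.05), after a check on simulated data. The number of arrays limits precision.

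The comparison, the 75 gene lists and 23 symbol families were chosen with earlier results of these data known. Named genes were the 12 largest called differences in each direction with the same sign on all days, the markers, and for each list up to 5 called members in each direction and 2 uncalled ones of highest signal; sort genes and defining markers were named as a check. Alternatives were 2 pseudocounts, 2 scalings, 2 filters, probe set averaging, the 6 arrays alone, no day term, no trend and leaving out arrays. Correlations of same-day deviations between the populations were 0.098, 0.061 and 0.112, so not every pair exceeded 0.1; day stayed in the fit as a factor of the design, which matches the arrays of a day, and the fit without it is an alternative. Probe sets named _x_at or _s_at, 1069 of those used (such as those of Cdc20, Kif22, Fzd2 and Psat1), can bind related transcripts.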

Additional observations from a re-analysis of the deposited data

How the results depend on the processing

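No gene the naming rule allows changed sign while called, under any alternative run. The total of 1541 calls (952 higher, 589 lower) was 1367 to 1610 under both pseudocounts, both scalings, both filters, averaged probe sets, the 6 arrays alone, no day term (1479, no replicate block) and no trend. Median centring gave 613 higher and 941 lower, and quantile normalization 693 and 794. With day 56 as the only hair germ array, 616 genes were called, 417 higher and 199 lower. Leaving out 1 array gave 783 to 1312 calls, 512 to 805 higher and 271 to 507 lower, the lowest without the bulge array of day 43. Fewer arrays leave fewer residual degrees of freedom (3, and 2 with day 56 alone). Of 584 genes open to naming, 199 lost their call with day 56 alone and 137 without the bulge array of day 43. The 584 included genes not called in the main fit, which had no call to lose, so the share of calls lost was larger than these counts over 584. Averaging the kept probe sets removed 23 calls among the 584, those of Phgdh, Hr, Tgfb2 and Cdkn1a among them. Of 563 called genes with several kept probe sets, 506 had the same sign in all of them. Low signals limit the folds of the 214 genes called higher with bulge below the array median throughout, and the 86 called lower with hair germ below it.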

Other observations

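Of 39 contractile and cytoskeletal genes, 10 were called lower in hair germ and 5 higher, beside 7.56% and 12.2% of all genes; 22 differences were positive and 17 negative, and the median of 0.15 turned to -0.16 after quantile normalization and -0.06 after median centring. Actn1 (-2.51), an actin cross-linker, and S100a6 (-1.83) were lower beside Pdlim3 and Sncg. Cnn2 (2.09) and Acta2 (1.71) were higher. Clock genes gave 6 of 15 higher and 1 lower: Bhlhe40 (2.81), a repressor of clock genes, differed by 2.73, 3.82 and 1.89 on days 43, 56 and 69, and Nfil3 (-1.92) by -2.10, -1.53 and -2.12. The time of day of collection is not given in the labels. Hypoxia response genes gave 6 of 14 higher, with Car12 (2.63), a carbonic anhydrase, and Higd1a (1.63), and 2 lower, Ndrg1 (-1.65) and Egln3 (-1.16). From the day 56 hair germ array alone, 3 clock and 3 hypoxia genes were higher and 1 hypoxia gene lower, and 1 hypoxia gene was lower without any single array but the day 43 hair germ array.

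The days were not alike. At least 2-fold differences with the higher array above its median numbered 766 higher and 667 lower on day 43, 796 and 418 on day 56, and 1076 and 676 on day 69, and 340 and 203 genes met this on all 3 days. For 26 genes the difference was 2-fold in opposite directions on different days. S100a8 (3.28), an alarmin of stressed epithelium, differed by 3.73, 1.31 and 4.79, with its smallest difference on day 56, and Arg2 by 1.38, 4.11 and 1.6, with its largest there.

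Bulge lay above hair germ for Pmp22 (-3.07), a myelin gene also expressed outside nerve, while Mbp (-0.12) and Cnp (-0.80), further Schwann cell markers, were not called. Summed signals of these markers were 422 to 587 in hair germ and 1560 to 2136 in bulge.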
